A study of Mus musculus with 4 samples.

Results

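Interferon-induced genes were examined in cells derived from mouse ES cells and sorted by kidney specific protein (KSP), the cadherin encoded by Cdh16. Of 40 such genes, listed by gene symbol, 38 had at least 1 probe set of their own on the array, 60 probe sets in all, and 34 were bright enough to be tested. Isg15 was represented only by a probe set that the annotation assigns to Isg15 and Gm9706 together, and no probe set was assigned to Ifi44, so neither was measured on its own. The rule used gene symbols and no measured value.

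Both groups came from CAG-GFP EB3, a GFP-expressing line of the ES cell line EB3 of strain 129/Ola, after 18 days of differentiation through embryoid bodies with Activin at 10 ng/mL. The groups were KSP-positive GFP-positive cells (2 arrays) and KSP-negative GFP-positive cells (2 arrays), sorted by flow cytometry with an antibody to KSP. The samples were collected in 2 independent experiments, all with a single ES cell line, and neither labels nor methods name an interferon treatment. No source says that equal replicate numbers mark 1 experiment, so the fractions were compared without pairing. A fit with the replicate number as a block is given in the closing section. The sort marker Cdh16 had log2 signals of 5.66 and 5.03 on KSP-positive arrays 1 and 2, against 5.30 and 4.71 on KSP-negative arrays 1 and 2, so the fractions overlapped at the level of this RNA (difference 0.34, adjusted p = 0.816 from limma).

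Interferons are secreted proteins, and cells release those of type I after they sense viral nucleic acid. Type I interferons bind the receptor chains IFNAR1 and IFNAR2 and act through the kinases JAK1 and TYK2 on a complex that includes STAT2 and IRF9 and binds the interferon-stimulated response element (ISRE) before antiviral genes. Interferon gamma acts on genes with the gamma-activated site (GAS), and pluripotent ES cells are known for a weak interferon response.

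Sequence before the gene start is shown first, because the ISRE is the known control element of this pathway. RefSeq windows of 300 bases (build GRCm38.p6, 250 bases before the annotated start and 50 from it on) were at hand for 31 of the 40 genes. The core of the ISRE, searched as GAAANNGAA on both strands, was present in 18 of the 31 genes (58.1%), against 9.76% of 27025 genes with such windows. The GAS, searched as TTCNNNGAA (the same letters on both strands), was present in 9 of the 31 genes (29.0%), against 9.55% of all genes, and 4 genes had both motifs, which overlap each other in Bst2 and Ifitm3. A match is a description of these letters and not of a bound site. The stretches below lie from 160 to 1 bases before the start and have the ISRE core in capitals; Ifih1 (chr2:62646256-62646415, minus strand) and Ifit1 (chr19:34640729-34640888, plus strand) are shown as genes that were higher in KSP-positive cells, Rsad2 (chr12:26456453-26456612, minus strand) as a gene over 2-fold higher that did not pass the test, and Gbp2 (chr3:142620503-142620662, plus strand), Igtp (chr11:58199396-58199555, plus strand) and Irgm1 (chr11:48871421-48871580, minus strand) as genes that carry the core and were under 2-fold. For Ifit3 (chr19:34583407-34583436, plus strand), which also was higher, only the 30 bases around a pair of its 3 matches are given.
Ifih1: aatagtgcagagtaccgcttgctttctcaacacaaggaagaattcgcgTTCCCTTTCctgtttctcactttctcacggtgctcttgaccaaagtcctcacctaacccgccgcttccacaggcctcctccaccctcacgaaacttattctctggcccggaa
Ifit1: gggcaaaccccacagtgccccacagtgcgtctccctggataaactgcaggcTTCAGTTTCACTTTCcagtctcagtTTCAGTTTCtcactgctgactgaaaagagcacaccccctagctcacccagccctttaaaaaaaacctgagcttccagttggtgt
Ifit3: tTTCAGTTTCtactttcctcTTCCCTTTCa
Rsad2: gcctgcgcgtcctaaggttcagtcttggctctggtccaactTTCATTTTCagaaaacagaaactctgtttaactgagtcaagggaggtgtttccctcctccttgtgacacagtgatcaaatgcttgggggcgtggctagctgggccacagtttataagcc
Gbp2: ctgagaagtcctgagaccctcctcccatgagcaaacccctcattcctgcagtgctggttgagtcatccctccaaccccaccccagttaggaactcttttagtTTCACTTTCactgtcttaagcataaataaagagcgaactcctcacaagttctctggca
Igtp: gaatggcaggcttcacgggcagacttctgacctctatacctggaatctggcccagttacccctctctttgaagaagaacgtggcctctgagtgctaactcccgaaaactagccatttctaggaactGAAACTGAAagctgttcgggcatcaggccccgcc
Irgm1: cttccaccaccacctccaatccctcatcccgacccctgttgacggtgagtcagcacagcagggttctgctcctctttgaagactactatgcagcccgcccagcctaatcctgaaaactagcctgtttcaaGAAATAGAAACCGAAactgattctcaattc
Ifit1 had 3 matches, 2 of which overlap each other, and the 2 matches of Irgm1 also overlap. In the stretches shown, the matches of Ifih1, Ifit1, Ifit3, Rsad2 and Gbp2 read as the reverse complement of GAAANNGAA, and those of Igtp and Irgm1 read in the direction of the gene. Ifih1 had a second match after its start, in the direction of the gene.

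**Figure D1:**
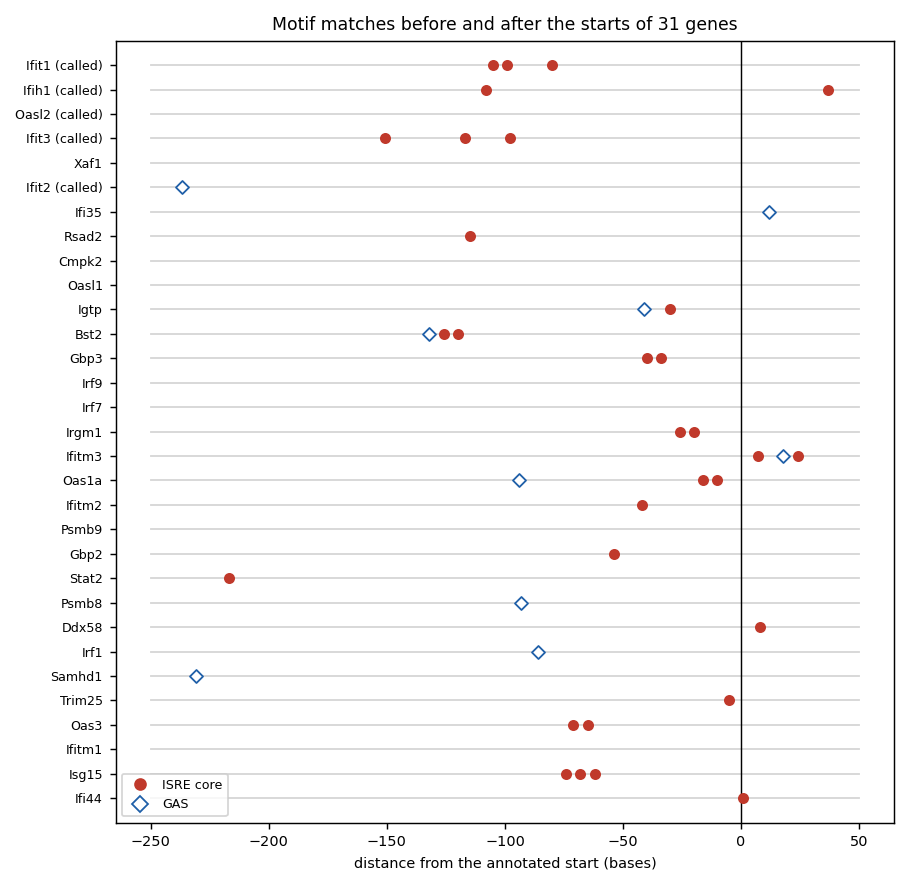
Position of ISRE core matches (filled red circles) and GAS matches (open blue diamonds) from 250 bases before to 50 bases after the annotated start (horizontal axis, bases) of 31 interferon-induced genes, ordered from the highest to the lowest log2 difference of the fractions, with the unmeasured genes last; for genes with several windows the one with most matches is drawn. Genes with the ISRE core stand along the whole order, from Ifit1 at the top to Oas3 among the lowest.

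In KSP-positive cells 7 of the 34 tested genes were higher than in KSP-negative cells, namely Ifih1, Ifit1, Ifit2, Ifit3, Oasl2, Ifi27l2a and Rtp4 (adjusted p under 0.05 from limma), and none was lower. Over all 12849 genes tested, 1.84% were called higher and 1.65% lower. Before adjustment, 13 of the 34 genes had p under 0.05 and were higher, against 9.05% of all genes, and 0 were lower, against 8.72% of all genes. More than 2-fold higher were 12 of the 34 genes, against 7.92% of all genes, and 0 were more than 2-fold lower, against 7.66% of all genes. Both KSP-positive arrays lay above both KSP-negative arrays in 20 of the 34 genes, against 24.4% of all genes, and below them in 2 genes (Samhd1 and Trim25), against 24.6% of all genes. Mx1 counts among these 13, 12 and 20 higher genes. Its KSP-negative mean of 4.77 lay under the filter on dim genes (5.14), which it passed only through its KSP-positive signals. With no filter on dim genes, the median log2 difference of the 38 genes was 0.62, beside 0 for all 18193 genes, and 32 of the 38 differences were above 0. In a fit without the filter limma called 0 genes of the whole array, where 11 of the 38 genes were higher at p under 0.05 before adjustment (6.51% of all genes). The methods' t-test called 9 of the 34 genes higher unadjusted (5.18% of all genes) and 0 after adjustment. The values are log2 of MAS5 signals scaled to a common 75th percentile, with signals under 12.3 (log2 3.62) raised to that floor. In sorted populations, fewer cells of a type and less RNA per cell cannot be told apart.

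**Figure D2:**
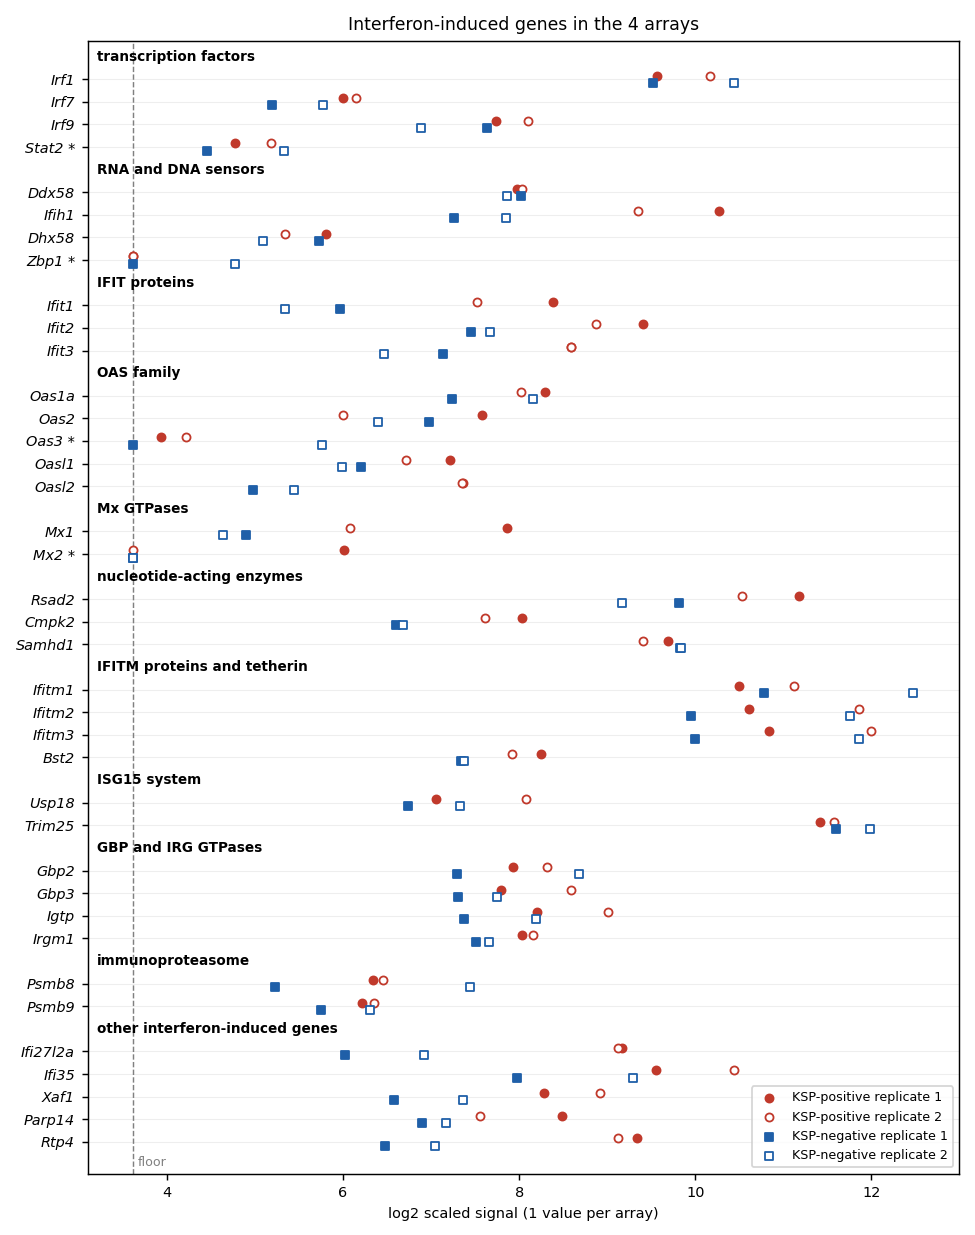
Log2 scaled signal (horizontal axis) of 38 interferon-induced genes (vertical axis, grouped by role) in KSP-positive replicates (red circles) and KSP-negative replicates (blue squares), filled for replicate 1 and open for replicate 2; the dashed line is the floor at 3.62, genes with an asterisk did not pass the filter, and levels of different genes are not compared. The 3 Ifit genes, Oasl2, Ifi27l2a and Rtp4 show the KSP-positive circles apart from the KSP-negative squares, while the Ifitm genes overlap.

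The IFIT proteins bind foreign RNA and block its translation, and the 3 genes all lie on chromosome 19. All 3 rose in KSP-positive cells. Ifit1 had log2 signals of 8.39 and 7.53 on KSP-positive arrays 1 and 2, against 5.97 and 5.34 on KSP-negative arrays 1 and 2, and was 4.93-fold higher (difference 2.30, standard error 0.46, limma's adjusted p = 0.0245). The lowest KSP-positive value of Ifit1 thus stood above the highest KSP-negative value by more than the spread within either fraction. Ifit3 had log2 signals of 8.59 on each KSP-positive array, against 7.14 and 6.47 on the KSP-negative arrays, and was 3.44-fold higher (difference 1.78, standard error 0.39, adjusted p = 0.0346). Ifit2 had log2 signals of 9.41 and 8.87 in KSP-positive cells, against 7.45 and 7.67 in KSP-negative cells, and was 2.99-fold higher (difference 1.58, standard error 0.37, adjusted p = 0.0448). The fractions did not overlap for Ifit2 and Ifit3 either. Ifit1 lost its call without KSP-positive replicate 1 (adjusted p = 0.0585) or KSP-negative replicate 2 (0.0685), Ifit3 without KSP-negative replicate 2 (0.137), and Ifit2 without KSP-positive replicate 1 (0.215), KSP-negative replicate 1 (0.0858) or KSP-negative replicate 2 (0.0648). The call of Ifit2 was also lost with unscaled signals (0.122), with quantile normalization (0.0588), with a higher floor (0.0530), with every probe set tested alone (0.0804) and without the intensity trend (0.0719), and that of Ifit3 with every probe set tested alone (0.0655) and without the trend (0.0532).

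Among the sensors of viral nucleic acid, 1 of 3 tested genes rose. Ifih1 encodes MDA5, which recognizes long double-stranded RNA. Its log2 signals were 10.27 and 9.36 on the KSP-positive arrays, against 7.26 and 7.85 on the KSP-negative arrays, a 4.78-fold rise (difference 2.26, standard error 0.42, adjusted p = 0.0165 from limma). Ifih1 kept its call in limma without each of the arrays in turn (adjusted p up to 0.0335). Ddx58 encodes RIG-I, which recognizes the triphosphate end of viral RNA, and had log2 signals of 7.97 and 8.03 in KSP-positive cells and 8.02 and 7.86 in KSP-negative cells. These values of Ddx58 overlapped, with a difference of 0.061 (95% interval -0.73 to 0.85, adjusted p = 0.955). Dhx58, which encodes the regulator LGP2, had log2 signals of 5.81 and 5.35 in KSP-positive cells and 5.73 and 5.09 in KSP-negative cells (difference 0.17, adjusted p = 0.911). A dimmer probe set of each of these genes had a difference of 1.73, with KSP-positive cells above KSP-negative cells in all arrays, and with 1 KSP-negative array at the floor. Zbp1, a sensor of Z-form nucleic acid, lay at the floor in both KSP-positive arrays and in 1 KSP-negative array on its brightest probe set, with 4.77 in the other, and was not tested.

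None of the 3 tested transcription factors of the pathway passed the test. Irf7, the factor that amplifies type I interferon production, had log2 signals of 6.00 and 6.14 in KSP-positive cells and 5.19 and 5.77 in KSP-negative cells (difference 0.59, adjusted p = 0.590 from limma). Irf9, the DNA-binding part of the ISRE complex, had log2 signals of 7.74 and 8.10 in KSP-positive cells and 7.64 and 6.89 in KSP-negative cells (difference 0.66, adjusted p = 0.445). In both genes the fractions did not overlap, yet the standard errors of 0.50 and 0.41 were close to the differences. Irf1, which drives many genes of the interferon gamma response, had a difference of -0.12 (95% interval -1.01 to 0.78) and overlapping values, and its sign turned when KSP-positive replicate 1 (0.18) or KSP-negative replicate 2 (0.34) was left out. Stat2 lay under the filter, with log2 signals of 4.77 and 5.19 in KSP-positive cells and 4.46 and 5.33 in KSP-negative cells.

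The 2'-5' oligoadenylate synthetases make a second messenger that activates the RNA-degrading enzyme RNase L, and the OAS-like proteins are their relatives. Of 4 tested genes Oasl2 rose. Its log2 signals were 7.36 and 7.35 on the KSP-positive arrays, against 4.97 and 5.44 on the KSP-negative arrays, a 4.44-fold rise (difference 2.15, standard error 0.45, adjusted p = 0.0290 from limma; 0.0647 when KSP-negative replicate 1 was left out and 0.0504 with every probe set tested alone). Oasl2 was no longer above a filter at the 60th percentile. Oasl1, also on chromosome 5, had log2 signals of 7.21 and 6.72 in KSP-positive cells and 6.20 and 5.99 in KSP-negative cells, with no overlap but an adjusted p = 0.332 (difference 0.87). Oas1a and Oas2 overlapped between the fractions, with differences of 0.46 and 0.10. For Oas2 the KSP-positive replicates themselves lay at 7.58 and 6.00, and its sign turned without KSP-positive replicate 1 (-0.69) or KSP-negative replicate 2 (-0.19). Oas3 lay under the filter, with 1 KSP-negative array at the floor and the other at 5.76, above both KSP-positive arrays. Neither window of Oasl2 and Oasl1 held the ISRE core, whereas those of Oas1a and Oas3 did.

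Ifi27l2a and Rtp4 had the smallest adjusted p-values of the list. Ifi27l2a encodes a small membrane protein strongly induced by type I interferon. Its log2 signals were 9.17 and 9.13 on the KSP-positive arrays, against 6.02 and 6.91 on the KSP-negative arrays, a 6.41-fold rise (difference 2.68, standard error 0.41, adjusted p = 0.00821 from limma). Rtp4 encodes a chaperone of membrane receptors, and its log2 signals were 9.33 and 9.12 in KSP-positive cells, against 6.48 and 7.04 in KSP-negative cells, a 5.53-fold rise (difference 2.47, standard error 0.38, adjusted p = 0.00821). A dimmer probe set of Rtp4, under the filter, had 4.70 and 3.62 in KSP-positive cells and 3.62 and 3.88 in KSP-negative cells. Its difference was 0.41, the fractions overlapped and 1 array of each lay at the floor. Without each of the arrays in turn, the adjusted p stayed at or under 0.0127 for Ifi27l2a and 0.0142 for Rtp4. Xaf1, a factor linked to cell death, had log2 signals of 8.28 and 8.91 in KSP-positive cells, against 6.58 and 7.36 in KSP-negative cells, and was 3.08-fold higher (difference 1.62, standard error 0.42) with an adjusted p = 0.0649 (0.0138 when KSP-positive replicate 1 was left out and 0.0384 when KSP-negative replicate 2 was, but 0.144 and 0.163 when the other arrays were). Ifi35, a leucine zipper protein, had log2 signals of 9.55 and 10.44 in KSP-positive cells, against 7.97 and 9.29 in KSP-negative cells, and was 2.58-fold higher (difference 1.37, standard error 0.48) with an adjusted p = 0.159 (0.0201 and 0.0227 when the same arrays were left out). Without KSP-positive replicate 2 or KSP-negative replicate 1 the difference of Ifi35 was 0.92 (adjusted p = 0.364) or 0.71 (0.426). Parp14, an ADP-ribosyltransferase, was 1.99-fold higher with an adjusted p = 0.250. For Xaf1, Ifi35 and Parp14 both KSP-positive arrays lay above both KSP-negative arrays.

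**Figure D3:**
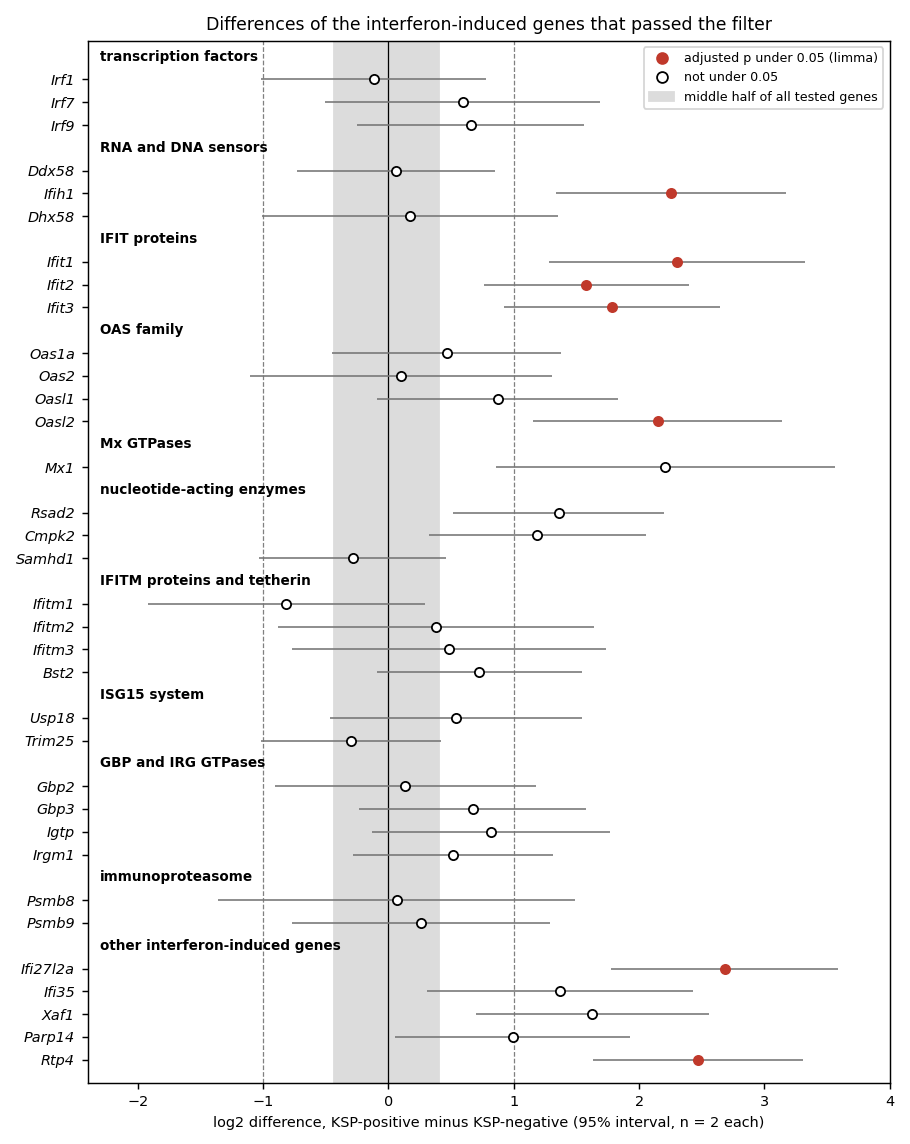
Difference in log2 signal, KSP-positive minus KSP-negative (horizontal axis, with 95% intervals from limma, n = 2 arrays each) of the 34 tested interferon-induced genes (vertical axis, grouped by role); red points passed the test (adjusted p under 0.05), open points did not, dashed lines stand at a 2-fold change and the grey band spans the quartiles of all 12849 genes, -0.44 to 0.41. The 7 called genes lie between 1.58 and 2.68, and no gene lies under -1.

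Mx1, a GTPase that traps viral ribonucleoprotein, was 4.62-fold higher but did not pass the test. Its KSP-negative mean of 4.77 lay under the filter of 5.14, so it was tested only through its KSP-positive signals. Its log2 signals were 7.87 and 6.08 on the KSP-positive arrays, against 4.90 and 4.63 on the KSP-negative arrays (difference 2.21, standard error 0.61, adjusted p = 0.0817 from limma). The distance between the KSP-positive replicates of Mx1 was 1.78, and leaving out KSP-positive replicate 2 gave an adjusted p = 3.8e-04, whereas leaving out KSP-positive replicate 1 gave a difference of 1.32 and an adjusted p = 0.492. Leaving out KSP-negative replicate 1 or 2 gave 0.0951 or 0.164, and unscaled values gave 0.0105. Mx2, its relative on chromosome 16, had a log2 signal of 6.01 in KSP-positive replicate 1 and lay at the floor in the other 3 arrays. Both Mx genes were thus highest in the same array.

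Rsad2 and Cmpk2 are neighbours on chromosome 12. Rsad2 encodes viperin, which makes a chain-terminating nucleotide, and Cmpk2 encodes a nucleotide kinase. Rsad2 had log2 signals of 11.18 and 10.53 in KSP-positive cells, against 9.81 and 9.17 in KSP-negative cells, and was 2.57-fold higher (difference 1.36, standard error 0.38, adjusted p = 0.0861 from limma; 0.0275 when KSP-positive replicate 2 was left out and 0.0410 when KSP-negative replicate 1 was, but 0.414 and 0.268 when the other arrays were). Cmpk2 had log2 signals of 8.04 and 7.61 in KSP-positive cells, against 6.60 and 6.68 in KSP-negative cells, and was 2.28-fold higher (difference 1.19, standard error 0.39, adjusted p = 0.136). Neither gene overlapped between the fractions. A dimmer probe set of Rsad2 had a difference of 2.70 and an adjusted p = 0.0186 over all probe sets, and averaging its 3 probe sets gave an adjusted p = 0.0253. Samhd1, which breaks down deoxynucleotides, had log2 signals of 9.69 and 9.41 in KSP-positive cells and 9.83 and 9.84 in KSP-negative cells (difference -0.29, adjusted p = 0.720). It was -1.17 (adjusted p = 0.292) without KSP-positive replicate 1, where another probe set of Samhd1 was the brightest, and -1.05 (0.265) with its probe sets averaged.

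**Figure D4:**
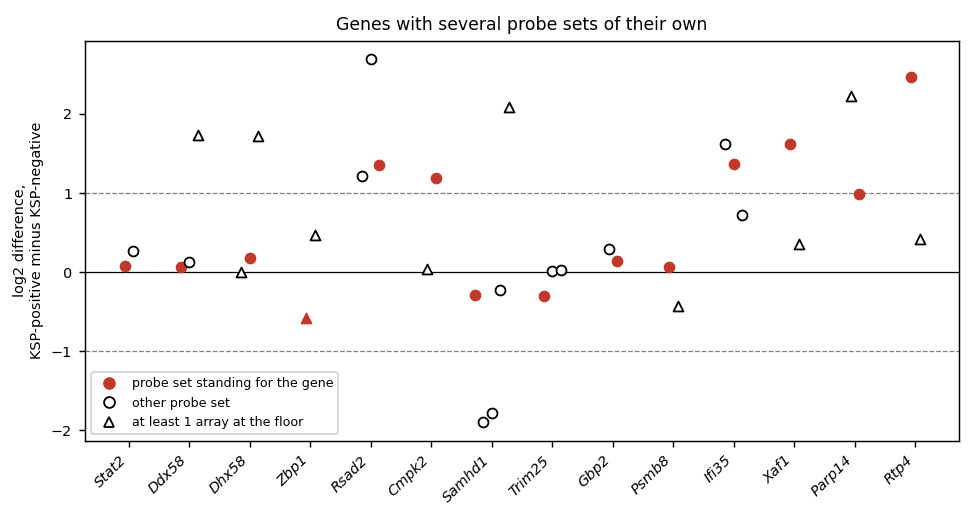
Difference in log2 signal, KSP-positive minus KSP-negative (vertical axis, n = 2 arrays each) of every probe set of the 14 interferon-induced genes with several probe sets (horizontal axis); filled red symbols stand for the gene, open symbols are its other probe sets, triangles have at least 1 array at the floor and dashed lines stand at a 2-fold change. The 5 probe sets of Samhd1 run from -1.90 to 2.09, whereas the 3 of Rsad2 lie between 1.21 and 2.70.

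Of the 14 genes with several probe sets, 9 had probe sets whose differences lay more than 1 apart on the log2 scale, and 4 had differences of both signs. Samhd1 was the widest, from -1.90 to 2.09, and its highest value came from a probe set with both KSP-negative arrays at the floor. Dimmer probe sets of Xaf1 and Cmpk2, both under the filter, had differences of 0.35 and 0.042, and the fractions overlapped in each. In Ifi35 the 3 probe sets lay between 0.72 and 1.63, and all had KSP-positive above KSP-negative arrays. The bright probe sets that stood for Ifi35, Trim25 and Gbp2 have the suffixes s_at or x_at, which mark probes that can match more than 1 transcript.

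None of the 4 tested genes of membrane proteins that hold back virus entry or release passed the test. Ifitm1, Ifitm2 and Ifitm3 are genes of chromosome 7 whose proteins block fusion of virus with the cell, and Ifitm1 and Ifitm3 are also known from embryonic and germ cells. Ifitm1 had log2 signals of 10.50 and 11.12 on the KSP-positive arrays and 10.78 and 12.47 on the KSP-negative arrays (difference -0.82, 95% interval -1.92 to 0.29, limma's adjusted p = 0.435). The difference of Ifitm1 without KSP-negative replicate 1 was -1.66 (adjusted p = 0.0394), and without KSP-negative replicate 2 it was 0.030. Ifitm2 had log2 signals of 10.61 and 11.86 in KSP-positive cells and 9.95 and 11.76 in KSP-negative cells. Ifitm3 had 10.83 and 11.99 in KSP-positive cells and 10.00 and 11.86 in KSP-negative cells. The replicates of one fraction differed by more than the fractions did, and the differences of 0.38 and 0.48 turned negative without KSP-positive replicate 2 (-0.25 and -0.098) or KSP-negative replicate 1 (-0.52 and -0.45). Bst2, which encodes tetherin, had log2 signals of 8.25 and 7.92 in KSP-positive cells and 7.34 and 7.38 in KSP-negative cells, with no overlap and an adjusted p = 0.340 (difference 0.72).

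Of the ISG15 system, which tags proteins with the ubiquitin-like ISG15, 2 genes were tested and neither passed. Usp18, which removes ISG15 and dampens receptor signalling, had log2 signals of 7.06 and 8.08 in KSP-positive cells and 6.74 and 7.32 in KSP-negative cells (difference 0.54, adjusted p = 0.595 from limma). Trim25, the ubiquitin ligase that activates RIG-I, had a difference of -0.30 (adjusted p = 0.697), with both KSP-positive arrays below both KSP-negative arrays. Dimmer probe sets of Trim25, both over the filter, had differences of 0.020 and 0.022, and the fractions overlapped in each.

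The genes most associated with interferon gamma also did not pass. Guanylate-binding proteins and immunity-related GTPases attack the vacuoles of intracellular pathogens. Igtp had log2 signals of 8.21 and 9.01 in KSP-positive cells and 7.38 and 8.20 in KSP-negative cells (difference 0.82, adjusted p = 0.354 from limma). Irgm1 had 8.03 and 8.16 in KSP-positive cells and 7.51 and 7.65 in KSP-negative cells (difference 0.51, adjusted p = 0.508). Gbp3 had a difference of 0.67 and Gbp2 one of 0.14. The fractions did not overlap for Igtp, Irgm1 and Gbp3, and overlapped for Gbp2, whose sign turned without KSP-positive replicate 2 (-0.059) or KSP-negative replicate 1 (-0.56). Psmb8 and Psmb9, subunits of the immunoproteasome that cuts peptides for MHC class I, had differences of 0.065 (95% interval -1.36 to 1.49) and 0.26 (95% interval -0.77 to 1.29). The KSP-negative replicates of Psmb8 lay at 5.23 and 7.44, on either side of the KSP-positive values of 6.34 and 6.46, and without KSP-negative replicate 1 its difference was -1.04.

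The upstream part of the pathway was looked at with a list of 60 gene symbols outside the 40 genes. Some genes stood in it under an old and a current symbol, such as Tmem173 and Sting1, so it held fewer genes than symbols. Of these symbols 41 had a probe set of their own and 28 were tested. None passed the test in limma, while before adjustment 10 had p under 0.05 and were higher (9.05% of all genes), and 0 were lower (8.72% of all genes). The methods' t-test called 3 of the 28 higher unadjusted (5.18% of all genes in that test) and 0 after adjustment. In 14 of the 28 genes both KSP-positive arrays lay above both KSP-negative arrays (24.4% of all genes), and in 3 they lay below (24.6% of all genes). Tlr3, among the 10 and the 14, had a KSP-negative mean of 4.77, and Ifnlr1, among the 3, a KSP-positive mean of 5.08. Each passed the filter of 5.14 only through its signals in the other fraction. Of 9 ligands with a probe set of their own, Ifnb1, the gene of interferon beta, alone passed the filter. Ifnb1 had log2 signals of 6.77 and 6.53 in KSP-positive cells and 4.85 and 5.79 in KSP-negative cells (difference 1.32, standard error 0.51, adjusted p = 0.198). Ifng, the gene of interferon gamma, and Ifna4 and Ifna9 lay at the floor in all 4 arrays. Of the receptors, Ifnar2 had 9.47 and 8.87 in KSP-positive cells and 8.27 and 7.73 in KSP-negative cells (difference 1.17, adjusted p = 0.136). Ifnar1 had a difference of 0.89 (adjusted p = 0.242), and both receptor chains for interferon alpha and beta showed no overlap between the fractions. The receptor chains for interferon gamma, Ifngr1 and Ifngr2, had differences of -0.022 (95% interval -0.83 to 0.78) and 0.24 (95% interval -0.64 to 1.12). The smallest adjusted p of the list was 0.0737, for Il10rb, a receptor chain shared by interleukin 10 and type III interferons (difference 1.54; adjusted p from 0.00579 without KSP-positive replicate 2 to 0.423 without KSP-positive replicate 1). Ifnlr1, the other receptor chain for type III interferons, had log2 signals of 5.22 and 4.94 in KSP-positive cells and 6.28 and 5.87 in KSP-negative cells (difference -0.99, adjusted p = 0.345), so both KSP-positive arrays lay below both KSP-negative arrays. Il10rb and Ifnlr1 were chosen after their values were seen.

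Markers of other cells were compared between the fractions in the same way. Over all 12849 genes tested limma called 1.84% higher and 1.65% lower, and 9.05% were higher at p under 0.05 before adjustment. Of 18 measured markers of macrophages and other white blood cells, 15 were tested and 12 were higher in KSP-positive cells. Their summed signals were 26623 and 12105 on KSP-positive arrays 1 and 2, against 2464 and 2962 on KSP-negative arrays 1 and 2. C1qa and Aif1, which macrophages express, lay at the floor in both KSP-negative arrays, and Cd3e of T cells lay at the floor in all 4 arrays. C1qa, C1qc and Fcgr1 had KSP-negative means of 3.62, 4.34 and 3.90, under the filter of 5.14. They passed it only through their KSP-positive signals. Of 12 markers of undifferentiated ES cells 11 were lower, with sums of 2121 and 2819 in KSP-positive cells and 12881 and 25325 in KSP-negative cells. Among these, Fgf4, Nanog and Utf1 had KSP-positive means of 3.73, 3.98 and 4.61, under the filter. They passed it only through their KSP-negative signals. Of 10 mesenchymal markers 5 were higher (sums 66741 and 49336 in KSP-positive cells, 30944 and 16655 in KSP-negative cells). Of 7 tested markers of renal epithelium 3 were lower (sums 7932 and 9794 in KSP-positive cells, 19157 and 24990 in KSP-negative cells). Of 8 endothelial markers limma called 0, and 0 had p under 0.05 before adjustment (sums 1359 and 3997 in KSP-positive cells, 2466 and 1314 in KSP-negative cells). Of 10 stress markers limma called 0, and 3 were higher at p under 0.05 before adjustment (sums 40145 and 41104 in KSP-positive cells, 32804 and 31128 in KSP-negative cells). The 7 called interferon-induced genes summed to 4022 and 2973 in KSP-positive cells and 717 and 861 in KSP-negative cells. KSP-positive replicate 1 was the highest of the 4 arrays for this sum, as for those of white blood cell and mesenchymal markers. For endothelial and stress markers KSP-positive replicate 2 was the highest, and for ES cell and renal epithelial markers KSP-negative replicate 2. The 27 tested genes that were not called summed to 16226 and 21974 in KSP-positive cells and 11924 and 23456 in KSP-negative cells, and include the bright Ifitm genes and Trim25. Called and not called genes are told apart by the difference itself, so these sums are a description, and 23 of the 27 genes had a difference above 0. The part of these other cells in the differences of the interferon-induced genes was not tested.

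**Figure D5:**
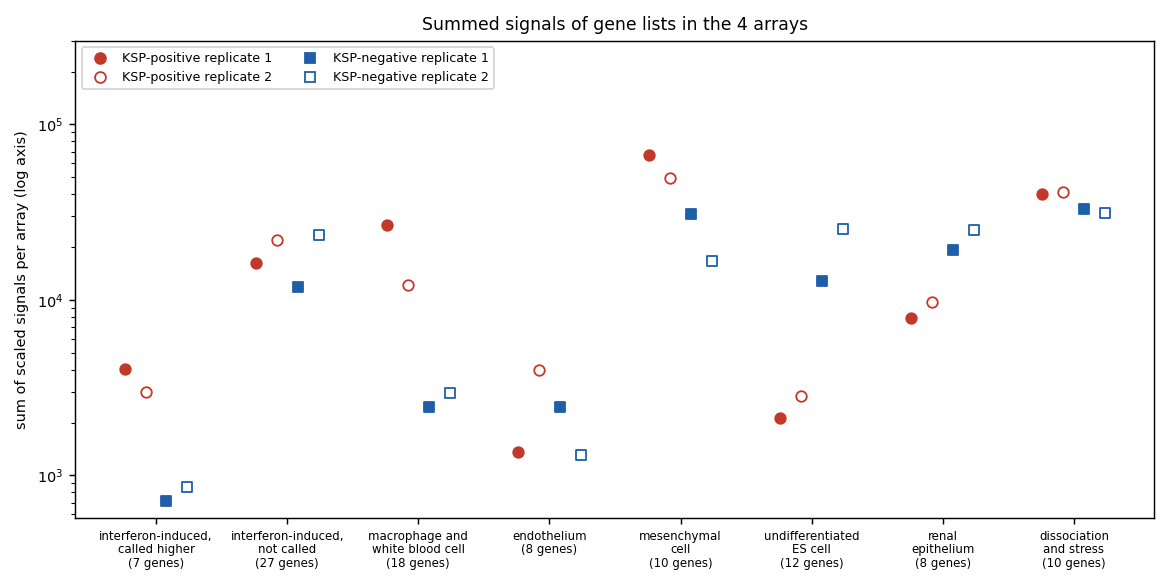
Sum of scaled signals per array (vertical axis, log scale) of the called and the not called interferon-induced genes and of 6 marker lists (horizontal axis, with the number of genes) in KSP-positive replicates (red circles) and KSP-negative replicates (blue squares), filled for replicate 1 and open for replicate 2; sums of different lists are not compared. The sums of the 7 called genes, of white blood cell, mesenchymal and stress markers are higher in both KSP-positive arrays, and those of ES cell and renal epithelial markers are lower.

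Set against the sequence, 3 of the 5 called genes with a RefSeq window (Ifih1, Ifit1 and Ifit3) held the ISRE core, as did 11 of the 22 tested genes that were not called. Ifit2 and Oasl2 were called and had none in these windows, and Ifi27l2a and Rtp4 had no window at hand. Of genes with the GAS, 1 of 5 called and 8 of 22 not called genes held it, among them Irf1, Psmb8 and Igtp. Genes with and without the ISRE core were thus found among both the called and the not called genes.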

How the data were processed

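RNA of the 4 samples was labelled with biotin after amplification in 2 cycles and hybridized to the Affymetrix mouse array named in the methods. The deposited values are signal intensities on a linear scale that the authors obtained with MAS5, as the submitters' notes name it, 1 per probe set and array. The version and the GeneSpring settings are not given in the sources used here. Deposited medians ran from 55.2 to 67.4, and correlations of log2 values across genes, which are not independent replicates, were 0.945 within each fraction and 0.856 to 0.921 between the fractions.

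Arrays were scaled to a common 75th percentile (factors 0.874 to 1.24), signals below the 20th percentile over the whole table were set to it (16.8% to 22.9% of an array), and log2 was taken. The annotation names a single gene for 34945 probe sets, several genes for 932 and no gene for 9160, beside 64 controls. Symbols were updated by gene ID to RefSeq (204 probe sets kept theirs). Those whose mean log2 signal exceeded the 40th percentile (5.14) were kept, and the brightest stood for its gene. The fractions were compared without pairing over 12849 genes with limma 3.58.1 in R 4.3.3 (empirical Bayes with intensity trend, Benjamini-Hochberg adjustment). Limma's p-values rest on the spread between these samples, drawn toward the spread of other genes of like signal. The standard error was thus 0.36 for Irgm1, with a pooled replicate SD of 0.099, and 0.64 for Psmb8, with one of 1.11. The number of arrays limits the precision. The procedure was tested on simulated data, and figures were drawn with matplotlib 3.10.9. The genes and lists were chosen with earlier results of these data known. Every gene of the list was to be named, and of the pathway the genes called, Ifnar1, Ifnar2, Ifngr1 and Ifngr2; 1 more gene of this rule is not reported here. The other genes named, ligands and single markers included, were chosen after their values were seen. Alternatives are given in the closing section.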

Additional observations from a re-analysis of the deposited data

How the results depend on the processing

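The 7 genes called higher numbered 0 with no filter, where 1050 genes had no spread and the smallest adjusted p over all genes was 0.201, and 0 with the methods' t-test after adjustment. With the replicate number as a block (replicate block) they numbered 11, among them the same 7 and Ifi35, Mx1, Rsad2 and Xaf1. No source says that equal numbers mark 1 experiment, and deviations of same-numbered arrays correlated at 0.166 across genes. Without each array in turn, 6 to 9 genes were called higher, 0 to 1 (Ifitm1) lower, and 0 to 2 were more than 2-fold lower (Samhd1, Ifitm1 or Psmb8); the last count was 1 (Samhd1) with probe sets averaged per gene and 1 (Samhd1) with every probe set alone. The median log2 difference of the list lay between 0.44 and 0.91 without each array. Pathway genes called higher numbered 4 with the block (Ifnar2 and, named after their values were seen, Il10rb, Irf8 and Socs3), 3 with the methods' t-test unadjusted, and 0 to 1 without each array. Of 118 values of the 7 called genes under alternatives, 88 kept their call, 30 lost it and 0 changed sign. Signs turned only for genes that were not called. Without each array, differences ran from -0.58 to 0.34 for Irf1, -0.020 to 0.14 for Ddx58, -0.15 to 0.49 for Dhx58, -0.69 to 0.89 for Oas2, -1.66 to 0.030 for Ifitm1, -0.52 to 1.29 for Ifitm2, -0.45 to 1.41 for Ifitm3, -0.56 to 0.83 for Gbp2, -1.04 to 1.17 for Psmb8, -0.020 to 0.54 for Psmb9 and -0.27 to 0.23 for Ifngr1. With the values as deposited, Ddx58 had -0.030 and Psmb8 -0.026. Over all genes, 236 higher and 212 lower calls became 571 and 560 with the block, 286 and 352 as deposited, 0 and 0 without the filter, 666 and 570 with the methods' t-test unadjusted (0 and 0 adjusted), 412 and 504 without KSP-positive replicate 2, then 381 and 294 when KSP-negative replicate 1 was left out and 166 and 104 when KSP-negative replicate 2 was. The cause of these changes was not tested. A lone array of a fraction was taken to vary like the other fraction.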

Other observations

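Between replicates of the same number, 15 of the 34 tested interferon-induced genes were higher in replicate 2 in both fractions (44.1%, against 36.1% of all genes tested), 7 were higher in replicate 1 in both, and 12 were mixed. The difference between the fractions was larger than the pooled replicate SD in 22 of the 34 genes (64.7%, against 58.1% of all genes tested). Tlr7, a sensor of single-stranded RNA in endosomes, lay under the filter, with log2 signals of 6.77 and 5.91 in KSP-positive cells and both KSP-negative arrays at the floor; it was chosen after its values were seen and was not tested.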
